A study of Mus musculus with 12 samples.

Results

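Medulloblastomas (MBs) from NdpKO;Ptch+/- mice were compared with the granule neuron progenitors (GNPs) of wild-type mice, the cell population from which Shh-driven MB arises. The comparison covers the 9400 genes, of 19057 measured, whose log2 signal reached 4.5 on at least 1 of the 8 arrays, 4 of tumors and 4 of GNPs. Each gene is given by its brightest probe, and the other 9657 genes stayed under 4.5 on all 8 arrays and were left out. The log2 signal of 4.5 is called the background limit here, since the quantile-normalized arrays have a median of 4.15 and signals near it form the floor of the scale. The highest signal on the 8 arrays was 4.5001 for the gene just inside the limit and 4.4993 for the gene just outside it, and 151 genes lay within 0.1 above the limit against 200 within 0.1 under it.

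The tumors came from mice with a heterozygous Ptch mutation and a null allele of Ndp, made by inserting a lacZ cassette into the locus. The study describes loss of the remaining wild-type Ptch allele as a mark of progression. Whether these tumors kept that allele was not tested. Because Ndp is X-linked, all compound mutants were males (Ndp-/y;Ptch+/-). Tumors were dissected from the cerebella of mice with symptoms, and the records give them a mixed strain background. GNPs came from wild-type C57Bl/6 mice at postnatal day 6 and were purified on a percoll gradient with pre-plating. A further group, 4 tumors of Ptch+/- mice with intact Ndp (C57Bl/6 in the records), entered the model and served to ask which differences from GNPs were smaller or larger without Ndp. According to the methods, by contrast, compound mutants and their controls belonged to 1 breeding cohort. Between NdpKO;Ptch+/- MB and GNPs, genotype, transformation, age, strain as recorded and the way the cells were obtained change together, so their parts in any difference cannot be told apart. The tumor genotypes also differ in strain as recorded, and the study reports a shorter tumor latency for compound mutants. There the parts of Ndp, strain and tumor age cannot be told apart, and "without Ndp" names a group and not a cause. In these bulk samples, fewer cells of a type and less RNA per cell cannot be told apart either. The records leave unsaid whether the 4 tumors are from 4 mice and whether GNPs of several mice were pooled, so a p-value here refers to the spread among samples, which may be partly technical.

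GNPs divide in the outer layer of the postnatal cerebellum in response to Sonic hedgehog (Shh), leave the cell cycle and become granule neurons. Ptch1 is the receptor that holds the hedgehog signal transducer Smo in check, and loss of its function leaves GNPs able to form MB. Norrin, the product of Ndp, is a secreted ligand that signals through Frizzled4, Lrp5 and Tspan12 on endothelial cells and maintains the vessels of the retina and cerebellum.

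The probe of *Ndp* lay between 4.12 and 4.21 on all 12 arrays, at background in wild-type samples too, so it could not check the genotype. The probes of *Fzd4*, *Lrp5*, *Gli1*, *Atoh1* and *Mycn* stayed under the limit on all 12 arrays as well. Other granule lineage genes were bright in both groups: *Zic1*, a transcription factor of the lineage, had signals of 13.60 to 13.86 in the tumors and 13.92 to 14.32 in GNPs, and *Barhl1*, another one, 11.29 to 11.76 and 11.03 to 11.13. Neither passed the test (adjusted p = 0.0537 and 0.0701). Of the 12 members of the granule progenitor list, *Zic2* and *Eomes* fell and 10 did not pass. For *Meis1*, 1 of the 10, the brightest probe had a log2 difference of 0.16. Other probes of *Meis1* rose by 1.24 and 1.45 (adjusted p = 0.0306 and 0.000785). *Eomes* is also the marker of unipolar brush cells, described below. The call of *Zic2* was lost without tumor replicate 1 or 2 or GNP replicate 1 or 2. *Eif2s3y*, on the Y chromosome, was at 9.82 to 10.52 in the 4 tumors and at 10.06 to 10.31 in the 4 GNP samples. In Ptch+/- MB, which enters only the comparison of tumor genotypes, it was at 4.21, 10.23, 9.96 and 10.09, with replicate 1 at the floor. Pearson's r between arrays of a group, across probes, was 0.989 to 0.993 for the tumors and 0.993 to 0.996 for GNPs.

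Of the 9400 genes, 2656 (28.3%) differed between NdpKO;Ptch+/- MB and GNPs at an adjusted p under 0.05 in limma, and a gene is said to rise or fall here only if it passed this test. Of all members 14.8% rose (1394) and 13.4% fell (1262), and 40.2% had tumor arrays that did not overlap with GNP arrays. The median log2 difference, tumor minus GNP, was 0.82 among the rises, -0.91 among the falls and 0.03 over all members. Falls reached further than rises: 50 fell and 23 rose by more than 4 on the log2 scale, and 249 fell and 183 rose by more than 2. Of the falls, 236 ended under the background limit on all 4 tumor arrays, and of the rises, 131 started from under it on all 4 GNP arrays. For these a fold can only be bounded, and "at least" is the fold between the mean of the brighter group and the limit. Where only some arrays of the dimmer group lay under the limit, the log2 difference is a fitted value.

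Tumors varied more among themselves than GNPs. Over the 7563 genes above the limit on all 8 arrays, the SD was larger among the 4 tumors for 5340 (70.6%), with a median of 0.22 against 0.14. Replicates 2 and 4 of the tumors stood furthest from their group, with 254 and 269 of these genes more than 1 on the log2 scale away from the mean of the other tumors, compared with 106 for replicate 1 and 165 for replicate 3. No GNP sample had more than 95. With each of these 8 samples left out in turn, the number of changed genes ran from 1993 (without tumor replicate 1) to 2487.

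**Figure D1:**
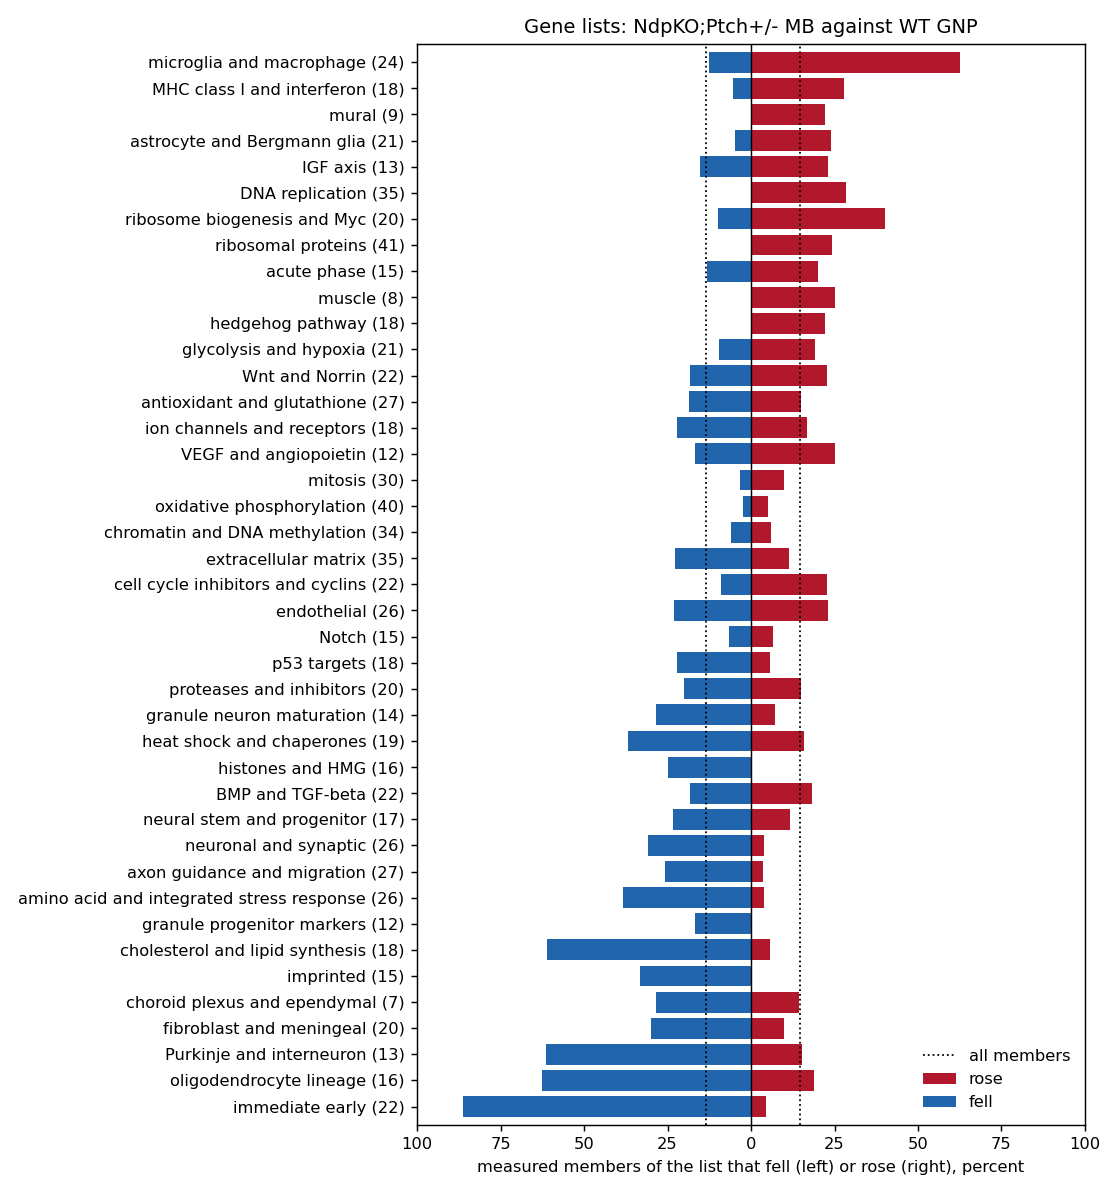
Share of the member genes of each list that rose (red, right) or fell (blue, left) in NdpKO;Ptch+/- MB against WT GNPs, in percent; the number of member genes is in brackets, lists are ordered by their median log2 difference and dotted lines mark the shares over all members (14.8% rose, 13.4% fell). Immediate early genes have 19 of 22 fallen, and microglia and macrophage genes 15 of 24 risen.

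Immediate early genes, transcription factors and feedback regulators that cells switch on within minutes of a stimulus, mostly fell. Of the 22 members, 19 fell, 1 rose and 2 did not pass, with a median log2 difference of -2.64. *Fos*, which encodes a subunit of the AP-1 factor, had signals of 12.70, 12.91, 13.23 and 13.35 in GNPs and 4.27, 5.06, 4.61 and 4.21 in the tumors. It had the largest fitted fall of all members (log2 difference -8.51 ± 0.42 (SE), adjusted p = 1.4e-06), with 2 of the 4 tumors under the limit. *Fosb*, of the same family, was under the limit in every tumor and between 10.11 to 10.37 in GNPs, at least 54.6-fold lower. The AP-1 partner *Junb* went from 9.12 to 9.43 in GNPs to 4.25 to 4.53 in the tumors (log2 difference -4.86, adjusted p = 1.28e-07). The groups did not overlap for any of these. *Egr1*, which growth factors and depolarization induce, kept a clear signal in both groups, at 13.22, 13.32, 13.67 and 13.71 in GNPs and 9.65, 9.34, 10.71 and 9.48 in the tumors. *Atf3*, induced by stress, fell to 4.13 to 4.17, and *Zfp36*, whose product destabilizes mRNAs of inflammatory genes, fell by 3.63 on the log2 scale. The dual-specificity phosphatase gene *Dusp1*, which ends MAP kinase signals, fell by 1.96, from 12.49 to 12.85 in GNPs to 10.64 to 10.83. The single rise was *Fosl2*, and its call was lost without tumor replicate 1, 3 or 4 or GNP replicate 1 or 2. The count of 19 falls was the same whichever sample was left out. Outside the list, *Npas4*, a transcription factor induced by neuronal activity, was under the limit in all 4 tumors and at 9.09 to 10.18 in GNPs, at least 34.2-fold lower.

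The cAMP response element (CRE), the motif TGACGTCA, is a site of the CREB factors that act on many immediate early genes. In RefSeq promoters (GRCm38.p6, 250 bases before to 50 after a start) it was searched on both strands; it is its own reverse complement. Of the 16 fallen immediate early genes with a promoter in the table, 1 held it, *Dusp1* (6.25%). The share was 3.84% among the 7647 members with a promoter and 2.03% among all 27025 genes. The stretch around it is shown as the example of the searched site in a gene that fell, with the motif in capitals; it lies before the start on the minus strand at chr17:26508551-26508671.
Dusp1: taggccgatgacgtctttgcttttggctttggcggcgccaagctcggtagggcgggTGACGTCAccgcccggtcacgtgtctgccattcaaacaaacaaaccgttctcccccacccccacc

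Genes of the amino acid and integrated stress response, a program that cells start when translation or nutrients fail, fell in 10 of 26 cases, with 1 rise (*Gpt2*; no gene of the list rose with any sample but tumor replicate 4 left out) and 15 that did not pass. *Chac1*, a target of Atf4 whose product degrades glutathione, had signals of 12.21, 12.10, 11.51 and 11.58 in GNPs and 4.88, 4.97, 4.75 and 6.08 in the tumors. Its log2 difference of -6.68 ± 0.76 (adjusted p = 0.000407) was the largest in size among members above the limit on all 8 arrays. *Atf4*, the hub of this response, and the factors *Ddit3* and *Cebpb* had log2 differences of -1.70, -2.67 and -3.12. The cystine transporter gene *Slc7a11* and *Trib3*, an inhibitor of Atf4, fell by 2.21 and 1.99. Of the aminoacyl-tRNA synthetase genes in the list, *Aars* and *Eprs* fell by 0.76 and 0.57, while *Gars*, *Sars*, *Wars* and *Nars* did not pass. Another synthetase gene, *Cars*, outside the list, was at 5.92, 4.58, 6.70 and 5.39 in the tumors and 9.45 to 9.62 in GNPs and fell by 3.88 (adjusted p = 0.00126), or by 1.29 with the mean of all its probes. Also outside the list, *Ppp1r15a*, whose product restores translation after stress, went from 9.18 to 9.58 in GNPs to 5.65 to 5.95, and the amino acid transporter gene *Slc38a5* fell by 3.65. For both groups of genes, the way the cells were obtained coincides with the comparison and cannot be told apart from the tumor state.

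**Figure D2:**
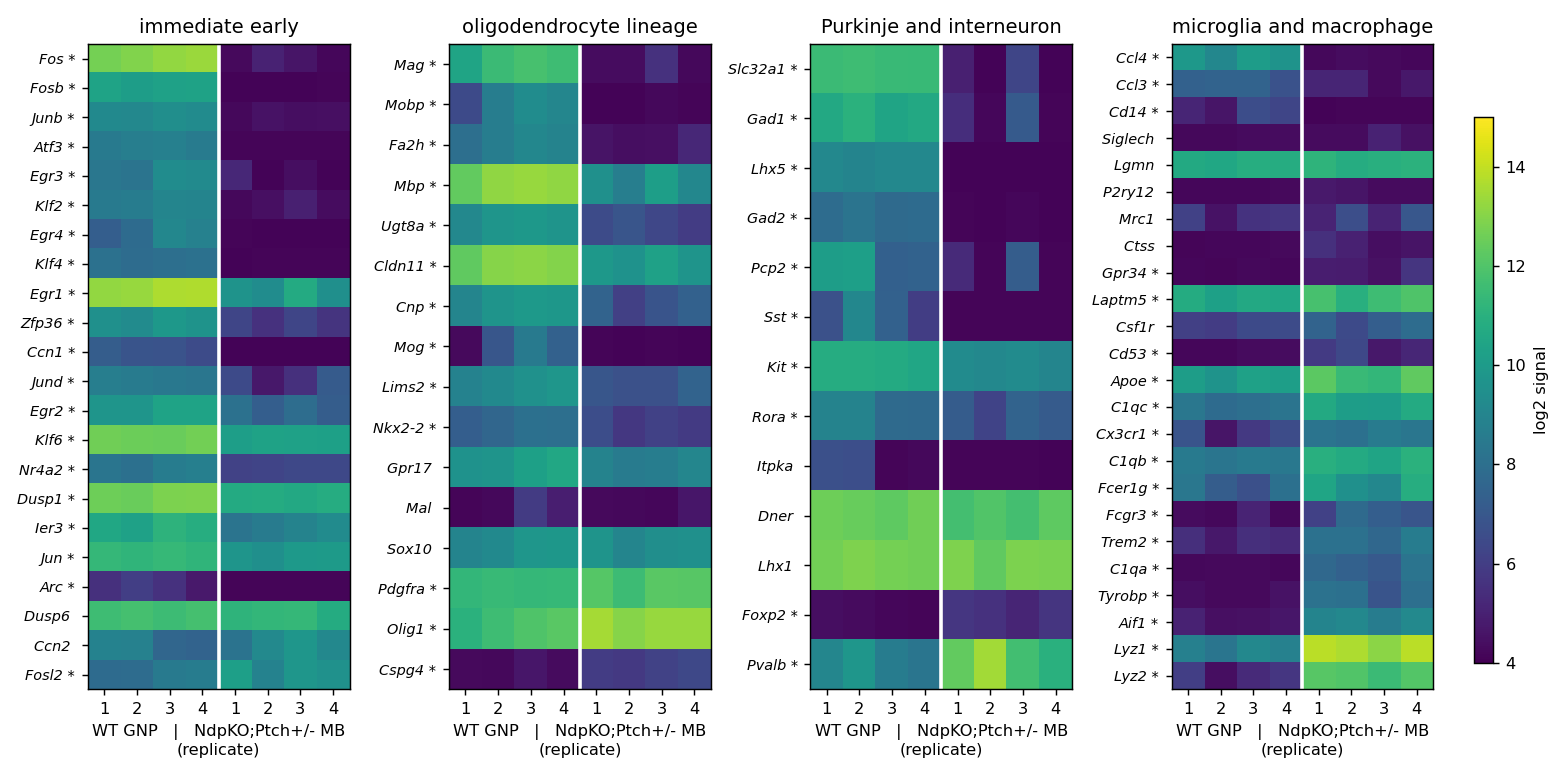
log2 signal (color) of the member genes of 4 lists on each array, with WT GNP replicates 1 to 4 left of the line and NdpKO;Ptch+/- MB replicates 1 to 4 right of it; genes are ordered by log2 difference and an asterisk marks those that passed the test. Fos was at 12.70 to 13.35 in GNPs and at 4.21 to 5.06 in tumors, Gad1 kept some signal in tumor replicates 1 and 3, and Lyz1 was high in all 4 tumors.

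Markers of Purkinje cells and inhibitory interneurons were mostly lower in the tumors, with 8 falls and 2 rises among 13 and a median log2 difference of -1.53. *Slc32a1*, the vesicular GABA transporter, was uniform in GNPs (11.42 to 11.59) and uneven in tumors, with 4.99, 4.12, 6.30 and 4.12. *Gad1*, which encodes a GABA-synthesizing enzyme, had 5.42, 4.18, 7.10 and 4.16 in the tumors and 10.42 to 11.00 in GNPs. The Purkinje cell gene *Pcp2* had 5.33, 4.14, 7.25 and 4.14 against 7.38 to 10.22. For all 3 genes, tumor replicates 1 and 3 held some signal and replicates 2 and 4 none above the limit. *Lhx5*, a LIM-homeobox gene of this lineage, and *Gad2*, the second GABA-synthesizing enzyme, were under the limit in every tumor, at least 24.2-fold and 10.8-fold lower. Outside the list, *Ptf1a*, the determinant of cerebellar GABAergic neurons, was at 9.35 to 9.55 in GNPs and at the floor in every tumor, at least 30.5-fold lower, and *Tfap2b*, a factor of their precursors, at least 81.1-fold lower. The parvalbumin gene *Pvalb*, which interneurons and Purkinje cells share, went the other way, at 12.34, 13.47, 11.67 and 10.99 in the tumors against 8.27 to 9.78 in GNPs (log2 difference 3.19, adjusted p = 0.0218). Its call was lost without tumor replicate 1 or 2 or GNP replicate 1, 3 or 4, with an adjusted p of up to 0.0605. The other rise was *Foxp2*, a factor of Purkinje cells. Neither rise passed without tumor replicate 1 or 2 or GNP replicate 3 or 4. The list's summed linear signal was 14845 to 21326 in tumors and 19220 to 24057 in GNPs.

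*Eomes*, the marker of unipolar brush cells, glutamatergic neurons of the same germinal zone as GNPs, was at 7.43 to 8.35 in GNPs and at 4.15 to 4.38 in the tumors. The cilium genes *Dynlrb2* and *Rsph1*, which ependymal cells express, were at 7.58 to 9.57 and 7.09 to 9.17 in GNPs and under the limit in all tumors, at least 17.7-fold and 13.8-fold lower. *Olig3*, a bHLH factor of the early rhombic lip, did the reverse. It was under the limit in all GNP samples and at 9.80, 9.33, 10.08 and 10.36 in the tumors, at least 42-fold higher. *Pou4f1*, a POU-homeobox gene of sensory and brainstem neurons, was at 10.06, 10.05, 7.36 and 8.88 in the tumors and under the limit in GNPs, and its call was lost without tumor replicate 1 or 2 or GNP replicate 1 or 2, with an adjusted p of up to 0.0621.

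In the oligodendrocyte lineage 10 of 16 genes fell and 3 rose, with a median log2 difference of -2.51. The falls took in *Mag*, *Mbp*, *Mobp*, *Mog* and *Cldn11*, proteins of the myelin sheath, and *Fa2h* and *Ugt8a*, enzymes that make its lipids. *Mag* had signals of 10.42, 11.50, 11.80 and 11.58 in GNPs and 4.36, 4.36, 5.56 and 4.25 in the tumors (log2 difference -6.69 ± 0.35, adjusted p = 2.33e-06). *Mbp* stayed well above the limit in the tumors, at 9.53, 8.69, 10.15 and 9.08 against 12.38 to 13.31. *Enpp6*, a phospholipase of newly formed oligodendrocytes and not on the list, was under the limit in every tumor, at least 65.7-fold lower. The 3 rises, *Cspg4*, *Olig1* and *Pdgfra*, are genes of oligodendrocyte precursors, while *Nkx2-2*, a factor those cells also use, fell by 1.65. *Olig1* was at 13.50, 13.00, 13.31 and 13.30 in the tumors and 11.03 to 12.19 in GNPs (log2 difference 1.58, adjusted p = 0.00438). *Sox10*, a factor of the whole lineage, was at 9.01 to 9.70 and 8.96 to 9.82, and the groups overlapped. The list's summed linear signal was 13709 to 19682 in tumors and 19822 to 35767 in GNPs.

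**Figure D3:**
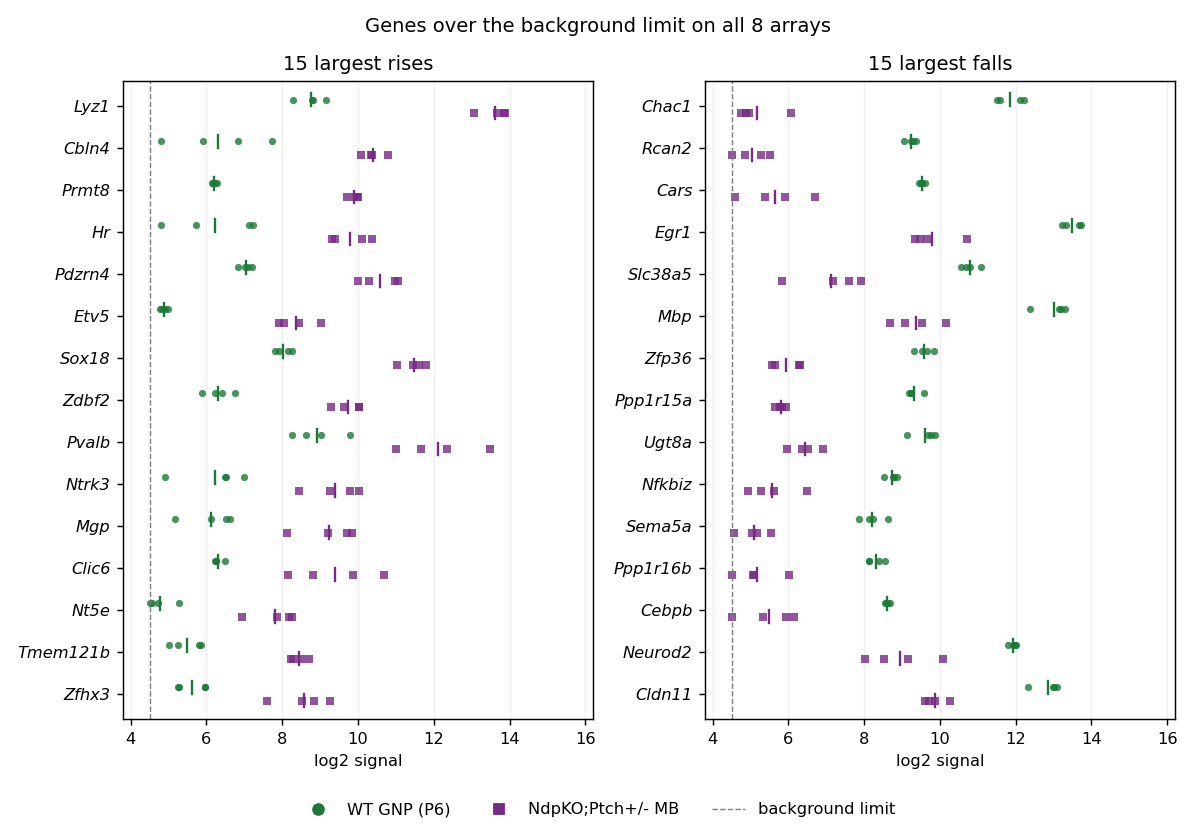
log2 signal (x axis) in each WT GNP sample (circles) and each NdpKO;Ptch+/- MB (squares) for the 15 rises and 15 falls of largest size among genes above the background limit (dashed line) on all 8 arrays, with bars at the group means. Lyz1 went from 8.28 to 9.15 in GNPs to 13.07 to 13.88 in tumors, and Chac1 from 11.51 to 12.21 to 4.75 to 6.08.

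Genes of microglia and macrophages, the phagocytes of the brain, rose in 15 of 24 cases, with 3 falls, 6 that did not pass and a median log2 difference of 1.52. *Lyz1* and *Lyz2* encode lysozymes of these cells and have near-identical sequences, so their probes may share signal. *Lyz1* was at 13.85, 13.66, 13.07 and 13.88 in the tumors and 8.79, 8.28, 9.15 and 8.81 in GNPs, the largest rise among genes above the limit on all 8 arrays (log2 difference 4.86 ± 0.22, adjusted p = 8.67e-07). *Lyz2* was at 11.51 to 12.13 against 4.40 to 6.06, and *Aif1*, the Iba1 antigen of microglia, at 8.63 to 9.19 against 4.43 to 5.06. For all 3 genes the groups were far apart. The complement C1q genes *C1qa*, *C1qb* and *C1qc* rose by 3.36, 2.36 and 2.28 on the log2 scale, and the phagocytic receptor gene *Trem2* by 2.89. *Tyrobp*, the adaptor of Trem2, was at 8.13, 8.04, 6.86 and 8.03, with replicate 3 below the other tumors, against 4.26 to 4.52 in GNPs. Outside the list, *Ms4a7*, a macrophage gene, and *Apobec1*, an RNA-editing enzyme, started from under the limit and were at least 27.9-fold and 24.6-fold higher.

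The 3 falls were *Ccl4*, *Ccl3* and *Cd14*. The chemokine gene *Ccl4* was at 9.88, 9.11, 10.07 and 9.66 in GNPs and under the limit in every tumor, at least 36.2-fold lower. *Ccl3*, a chemokine of the same family, went from 6.78 to 7.52 to 4.27 to 5.14. *P2ry12*, a receptor of resting microglia, was near the limit throughout (4.32 to 4.75 in tumors, 4.2 to 4.28 in GNPs), and *Tmem119*, *Itgam*, *Ptprc* and *Spi1* were under it on all 8 arrays. The summed linear signal of the 24 genes was 23879 to 38711 in the tumors and 5631 to 7805 in GNPs, with no overlap.

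Antigen presentation and interferon genes had 5 rises and 1 fall among 18. The immunoproteasome subunit *Psmb8* rose by 2.30, from 4.36 to 4.68 in GNPs to 6.45 to 7.07, and the interferon-induced *Ifi27* and *Ifit2* rose by 2.25 and 1.82. The MHC class I light chain *B2m* and the class I gene *H2-T23* rose by 0.93 and 1.15, and *Irf1*, the interferon regulatory factor gene, fell by 1.16. Astrocyte and Bergmann glia genes had 5 rises and 1 fall among 21. *Gfap*, the intermediate filament of astrocytes, was at 10.94, 10.55, 10.39 and 10.88 against 8.59 to 9.03 (log2 difference 1.88, adjusted p = 0.0011), and the glutamate transporter gene *Slc1a2* rose by 1.47. The list's summed linear signal was 39288 to 54021 in tumors and 35732 to 38411 in GNPs. The part of the cells a tumor contains in these differences was not tested.

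Of 18 hedgehog pathway genes 4 rose (22.2%, against 14.8% of all members), none fell and 14 did not pass. *Sfrp1*, a secreted Wnt inhibitor that hedgehog signalling induces, was at 13.52, 13.17, 13.53 and 13.51 in the tumors and 12.02 to 12.19 in GNPs (log2 difference 1.35 ± 0.10, adjusted p = 2.82e-05). *Ccnd1*, the cyclin that hedgehog signalling induces in GNPs, was at 13.53, 13.31, 13.73 and 13.21 against 12.36 to 12.99 (log2 difference 0.90, adjusted p = 0.00934). For both, every tumor lay above every GNP sample. The other rises were *Sufu*, an inhibitor of Gli factors, by 1.00, and *Evc2*, a ciliary protein of the pathway, by 1.07. Another probe of *Sufu* had a log2 difference of -0.02 (adjusted p = 0.982), and with the mean of its probes *Sufu* did not pass. The call of *Sufu* was lost without tumor replicate 1 or 4 or GNP replicate 1, 2 or 4 and that of *Evc2* without tumor replicate 1 or 3 or GNP replicate 1, 3 or 4, with adjusted p of up to 0.113 and 0.0629 over all alternatives. Without tumor replicate 1 or GNP replicate 4 the list had 2 rises. *Ptch1* overlapped between the groups, at 10.06, 8.27, 8.90 and 8.12 in the tumors and 9.32 to 9.89 in GNPs (adjusted p = 0.379), and so did the transducer *Smo* (8.52 to 9.08 and 8.6 to 9.03), the effector *Gli2* and the cyclin *Ccnd2*, which did not pass (adjusted p = 0.914, 0.624 and 0.856).

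Among cell cycle genes, most did not pass, and the sizes of those that did ranged widely. Of 35 DNA replication genes 10 rose and none fell, with a median log2 difference of 0.26. *Pole*, the catalytic subunit of the leading-strand polymerase, rose by 1.25, the replication fork factor *Cdc45* by 0.77, the helicase subunit *Mcm7* by 0.55 and the clamp loader subunit *Rfc2* by 0.42. Without tumor replicate 1 or GNP replicate 4 there were 6 rises, and with the mean of all probes of a gene also 6, where *Mcm7* no longer passed. Of 30 mitosis genes 3 rose and 1 fell, with 6 rises without tumor replicate 4, no fall without tumor replicate 1, 2 or 4 or GNP replicate 1 or 2 and 3 falls without tumor replicate 3. Among cyclins, their kinases and inhibitors, *Cdk6*, a kinase that D cyclins activate, was under the limit in GNPs and at 6.75 to 7.23 in the tumors, at least 5.33-fold higher. Its partner *Ccnd3* rose by 1.27. *Cdkn1c*, which encodes the inhibitor p57, fell by 1.54, a call lost without tumor replicate 1 or 4 or GNP replicate 1 or 2 (adjusted p up to 0.0617). Of 18 p53 targets 4 fell and 1 rose, with *Mdm2*, which degrades p53, down by 0.64 and the kinase gene *Plk2* by 2.90.

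E2F factors bind near the start of many replication genes. The motif was searched as TTTCCCGC or TTTGGCGC on both strands, and a promoter with either counted as holding it. It was found in 9 of 29 DNA replication genes with a promoter (31%), in 3 of the 7 that rose (42.9%), in 3.56% of the members and in 1.8% of all genes. Among all members it stood in 4.52% of those that rose and 2.81% of those that fell. The GLI motif GACCACCCA was in 0.531% and 0.101% of them, or 6 and 1 genes, in 0.289% of all genes, and in none of the 14 hedgehog genes with a promoter. The stretches before the start of the helicase subunit genes *Mcm6* and *Mcm7*, which rose by 0.47 and 0.55, are shown with the motif in capitals, *Mcm6* at chr1:128359751-128359871 and *Mcm7* at chr5:138171984-138172104, both on the minus strand. Other probes of *Mcm6* had log2 differences of 0.29, 0.12 and 0.48 and another probe of *Mcm7* 0.02, and none of these passed. In *Mcm7* the motif reads in its reverse complement.
Mcm6: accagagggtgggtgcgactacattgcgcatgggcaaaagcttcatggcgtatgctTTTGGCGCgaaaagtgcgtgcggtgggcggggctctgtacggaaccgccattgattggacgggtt
Mcm7: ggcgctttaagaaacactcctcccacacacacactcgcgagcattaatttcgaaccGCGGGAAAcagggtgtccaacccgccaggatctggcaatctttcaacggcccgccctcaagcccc

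**Figure D4:**
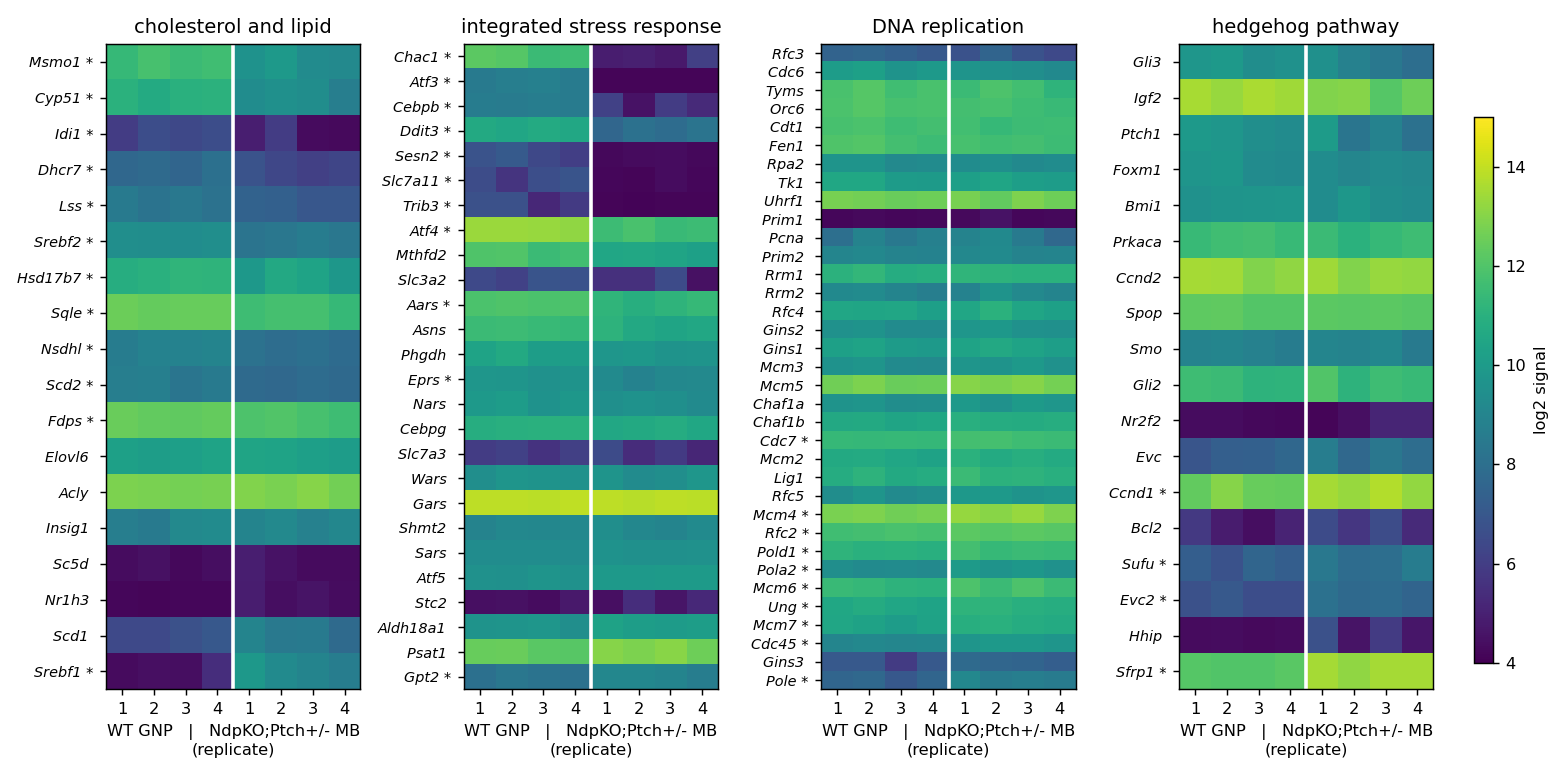
log2 signal (color) of the member genes of 4 lists on each array, with WT GNP replicates 1 to 4 left of the line and NdpKO;Ptch+/- MB replicates 1 to 4 right of it; genes are ordered by log2 difference and an asterisk marks those that passed the test. Most sterol genes fell while Srebf1 went from 4.31 to 5.45 to 8.66 to 9.85, and most replication and hedgehog genes did not pass.

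Many genes of sterol synthesis fell. Of 18 cholesterol and lipid genes 11 fell, 1 rose and 6 did not pass, with a median log2 difference of -0.80. The falls took in *Idi1*, *Fdps*, *Sqle*, *Lss*, *Cyp51*, *Msmo1*, *Nsdhl*, *Hsd17b7* and *Dhcr7*, which encode enzymes of the pathway from isoprenoids to cholesterol. *Msmo1*, a methylsterol oxidase, was at 9.62, 9.96, 9.30 and 9.17 in the tumors and 11.36, 11.78, 11.49 and 11.62 in GNPs (log2 difference -2.05 ± 0.18, adjusted p = 8.15e-05). *Sqle*, which oxidizes squalene, fell by 0.84, and *Srebf2*, whose product switches these genes on, fell by 1.01. *Srebf1*, its paralog that governs fatty acid synthesis, went the other way, at 9.85, 9.28, 8.96 and 8.66 against 4.31, 4.44, 4.41 and 5.45 (log2 difference 4.53 ± 0.34, adjusted p = 3.04e-05). The fatty acid synthesis genes *Acly* and *Elovl6* did not pass. Leaving out 1 sample gave 8 to 9 falls, and the replicate block 8.

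A minority of ribosomal protein genes rose, by small steps. Of 41, 10 rose (24.4%, against 14.8% of all members), 31 did not pass and none fell, the largest rise being *Rpl21* with a log2 difference of 0.60, and the median was 0.18. The count was 5 without GNP replicate 3 or with a replicate block, and 6 without tumor replicate 1 or 2 or GNP replicate 1. In the list of ribosome biogenesis and Myc genes 8 of 20 rose and 2 fell, with rises of 1.63 for *Polr1b*, a subunit of RNA polymerase I, 1.04 for *Cad*, which starts pyrimidine synthesis, and 1.00 for *Pes1*, a ribosome assembly factor. *Mycl*, of the Myc family, rose by 0.76 and *Max*, the Myc partner, fell by 1.79. Without tumor replicate 1 or GNP replicate 1 the list had no fall. Oxidative phosphorylation genes had 2 rises and 1 fall among 40, with 1 rise without tumor replicate 1 or 2 or any GNP replicate, and chromatin genes 2 of each among 34. The rises among chromatin genes were the histone deacetylase genes *Hdac9* and *Hdac4*, by 2.69 and 1.69.

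Vessel genes moved both ways, 6 up and 6 down of 26 members. *Esm1*, a proteoglycan of sprouting endothelial tip cells, was under the limit in GNPs (4.14 to 4.19) and at 8.74, 9.85, 9.09 and 8.57 in the tumors, at least 23.6-fold higher. *Plvap*, which forms the diaphragms of leaky vessels, was at 4.80, 7.20, 8.08 and 7.84 against 4.16 to 4.35, at least 5.58-fold higher, and its call was lost without tumor replicate 3 and with only the 2 groups fitted (adjusted p up to 0.0588 over all alternatives). The SoxF factor *Sox18* was at 11.79, 11.03, 11.45 and 11.61 against 7.82 to 8.26 (log2 difference 3.44 ± 0.25, adjusted p = 2.26e-05). Another SoxF factor, *Sox7*, fell from 8.48 to 9.18 in GNPs to 4.98, 4.46, 5.83 and 4.46. *Cldn5*, the tight junction protein of the blood-brain barrier, fell by 1.29, while *Emcn* and *Pecam1*, surface proteins of most endothelial cells, did not pass (adjusted p = 0.102 and 0.179). *Angpt2*, a ligand that loosens vessels, rose by 1.19, and the lymphatic growth factor gene *Vegfc* fell by 2.96. The list's summed linear signal was 12797 to 15070 in tumors and 10503 to 14211 in GNPs, and these ranges overlap. Without tumor replicate 3 there were 3 rises, and without tumor replicate 1 there were 4 falls.

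Of 20 fibroblast and meningeal genes 6 fell and 2 rose, with 1 rise when any sample but tumor replicate 2 was left out. *Slc6a13*, a GABA and taurine transporter of the meninges, was at 4.13 to 4.25 in the tumors and at 8.45 to 9.04 in GNPs. The matrix proteoglycan *Dcn* fell by 1.48, a call lost without tumor replicate 1, 2 or 3 or GNP replicate 1, 2, 3 or 4 (adjusted p up to 0.0781). *Mgp*, an inhibitor of calcification, went up, with 8.14, 9.21, 9.85 and 9.71 against 5.18 to 6.62. In the matrix list 8 of 35 fell and 4 rose. The falls included *Tnc*, *Col6a1* and the microfibril protein gene *Mfap4*, with log2 differences of -2.70, -2.19 and -1.93. The laminin chain *Lama5* rose by 2.53 and the proteoglycan *Bcan* of brain matrix by 1.20. The matrix list had 1 rise without tumor replicate 3 or GNP replicate 1, 2 or 4, and 5 falls without tumor replicate 1, 2 or 4 or GNP replicate 1.

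Genes of signals between cells moved both ways, where over all members 14.8% rose and 13.4% fell. Of 22 Wnt and Norrin genes 5 rose (22.7%) and 4 fell (18.2%), with a median log2 difference of 0.08. *Sp5*, a target of β-catenin, had the largest bound among the falls, at 11.23, 11.16, 10.89 and 11.11 in GNPs and 4.14 to 4.17 in the tumors, at least 96.9-fold lower. The ligands *Wnt5a* and *Wnt7b* fell by 3.90 and 2.07. The secreted inhibitors *Sfrp1* and *Sfrp2* rose, the latter by 2.64, and so did the receptors *Fzd2* and *Fzd7*. *Tspan12*, the co-receptor of Norrin, was at 8.75, 8.72, 8.75 and 8.15 in the tumors and 7.91 to 8.17 in GNPs (log2 difference 0.53, adjusted p = 0.0363), and its call was lost without tumor replicate 1, 2 or 3 or GNP replicate 1, 2, 3 or 4. Of 22 BMP and TGF-beta genes 4 rose and 4 fell (18.2% each), with 2 rises without tumor replicate 1 or 3 or GNP replicate 1 or 2. *Bmp4*, a ligand that drives GNPs out of the cell cycle, was at 7.71 to 8.44 in GNPs and 4.14 to 4.21 in the tumors. *Id1*, a target of BMP signals, fell by 1.90 and the receptor gene *Bmpr1b* by 1.64, while *Smad3*, which carries TGF-beta signals to the nucleus, rose by 1.63 (adjusted p = 0.00138).

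The insulin-like growth factor axis, which sustains GNPs and MB, had 3 rises and 2 falls among 13. *Igf1* was at 6.92, 7.10, 6.86 and 7.56 in the tumors and at 5.26, 4.19, 4.23 and 4.19 in GNPs. The binding protein genes *Igfbp3* and *Igfbp7* rose by 3.33 and 0.98 and *Igfbp5* fell by 2.47, from 13.11 to 13.21 to 10.19 to 11.13. *Igf2*, a target of hedgehog signalling, was at 12.11 to 13.02 and 13.31 to 13.60 and did not pass. Among genes outside the lists, *Etv5*, a transcription factor that FGF signals induce, rose from 4.78 to 4.99 in GNPs to 7.92 to 9.03 (log2 difference 3.48). *Ntrk3*, the receptor of neurotrophin 3, rose by 3.15, and its dimmer probes rose by 4.11 and 2.81.

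Neuronal genes that passed mostly fell. Of 26 neuronal and synaptic genes 8 fell and 1 rose, with a median log2 difference of -0.47, and there were 4 falls without tumor replicate 1 or GNP replicate 2. *Syt1*, the calcium sensor of synaptic vesicles, was at 8.68, 8.91, 9.33 and 9.76 against 11.88 to 12.08 (log2 difference -2.81 ± 0.32, adjusted p = 0.000404), and the neurofilament gene *Nefm* fell by 2.55. *Map2*, of the dendritic cytoskeleton, rose by 0.59. In axon guidance and migration 7 of 27 fell, the guidance ligands *Sema5a* and *Slit2* by 3.14 and 2.55. *Dcc*, the netrin receptor, was the single rise, at 8.38, 8.05, 7.67 and 7.91 in the tumors and under the limit in GNPs, at least 11.3-fold higher. Granule neuron maturation genes had 4 falls and 1 rise among 14. The brightest probe of *Nfib*, of this list, had a log2 difference of 0.25 and did not pass. Other *Nfib* probes rose by up to 3.07 (adjusted p = 7.08e-05) or did not pass. The differentiation factor *Neurod2* was at 8.53, 9.16, 8.01 and 10.07 against 11.80 to 12.02, a call lost without tumor replicate 1, 2 or 3 or GNP replicate 1, 2, 3 or 4 (adjusted p up to 0.114). The cerebellin gene *Cbln1* fell by 0.98, while *Cbln4*, outside the list, rose by 4.08, from 4.79 to 7.73 in GNPs to 10.08 to 10.79. Among ion channels and receptors, the calcium channel subunit *Cacna2d1* rose by 2.31 and the glycine receptor subunit *Glra2* fell by 4.35.

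Stem cell markers split, with 2 rises and 4 falls among 17. *Nes*, the intermediate filament of neural progenitors, and the RNA-binding protein gene *Msi1* rose by 2.40 and 2.31. Another probe of *Nes* had a log2 difference of 0.19 and did not pass (adjusted p = 0.742). The factor *Sox2* fell by 2.50, with 4.64, 5.19, 5.30 and 4.22 in the tumors and 7.17 to 7.51 in GNPs. The brightest probe of *Msi2* fell by 0.97 and another of its probes rose by 2.35 (adjusted p = 0.000298), so the direction of this gene depends on the probe. Over the 1472 dimmer probes above the limit of changed genes, 1290 had the sign of the brightest probe, and 38 passed with the opposite sign.

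Genes outside the lists led several ranks. *Prm1*, which packs DNA in sperm, had the largest bound of all, at 12.01, 12.40, 12.66 and 12.50 in the tumors and at the floor (4.14 to 4.17) in GNPs, at least 238-fold higher. *Krt12*, a keratin of the cornea, was at 12.40, 12.67, 9.25 and 11.25 against 4.12 to 4.13, a call lost without tumor replicate 1 or 2 or GNP replicate 1 (adjusted p up to 0.0586). *Prmt8*, a brain-specific arginine methyltransferase, was at 9.99, 9.97, 9.91 and 9.70 against 6.14 to 6.27 (log2 difference 3.69 ± 0.20). *Rcan2*, an inhibitor of calcineurin, fell from 9.05 to 9.36 to 4.52 to 5.51, and its other probe fell by 3.51.

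The last question was which of these differences were nearer to or further from the GNP level than in tumors with intact Ndp. Of the 9400 members 372 (3.96%) differed between NdpKO;Ptch+/- and Ptch+/- MB, 149 higher and 223 lower without Ndp. This model shares its estimate of the spread with GNPs, which vary less than tumors. A fit on the 8 tumors alone, which also leaves fewer residual degrees of freedom, gave 41. The cause of this drop was not tested. Ptch+/- replicate 1 was the tumor with *Eif2s3y* at the floor; without it 267 genes differed, 194 nearer to GNPs and 73 further, and its part in the 372 was not otherwise tested. For 260 of the 372 (69.9%) the NdpKO;Ptch+/- mean lay nearer to GNPs than the Ptch+/- mean, and for 112 (30.1%) further away. Of the 260, 180 did not pass against GNPs, 79 did on the same side as Ptch+/- MB and 1 passed on the other side of GNPs. A place among the 180 did not require that Ptch+/- MB passed against GNPs. Of the 112, 93 were genes in which Ptch+/- MB did not pass against GNPs, 10 had moved further along the direction of Ptch+/- MB and 9 lay on the other side of GNPs. Of the 93, 84 passed against GNPs in NdpKO;Ptch+/- MB. The rest, *Mgarp* and *Emcn* among them, passed against GNPs in neither tumor group. The contrasts share their samples, so these classes describe the means and are not a test of their own. Of the 1394 rises 1291, and of the 1262 falls 1182, did not pass between the tumor genotypes, which does not show that the genotypes were alike. Of 248 further genes that reached the limit on Ptch+/- arrays but on none of the 8, 10 passed. All 10 were lower without Ndp, a direction that this choice of genes all but fixes.

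**Figure D5:**
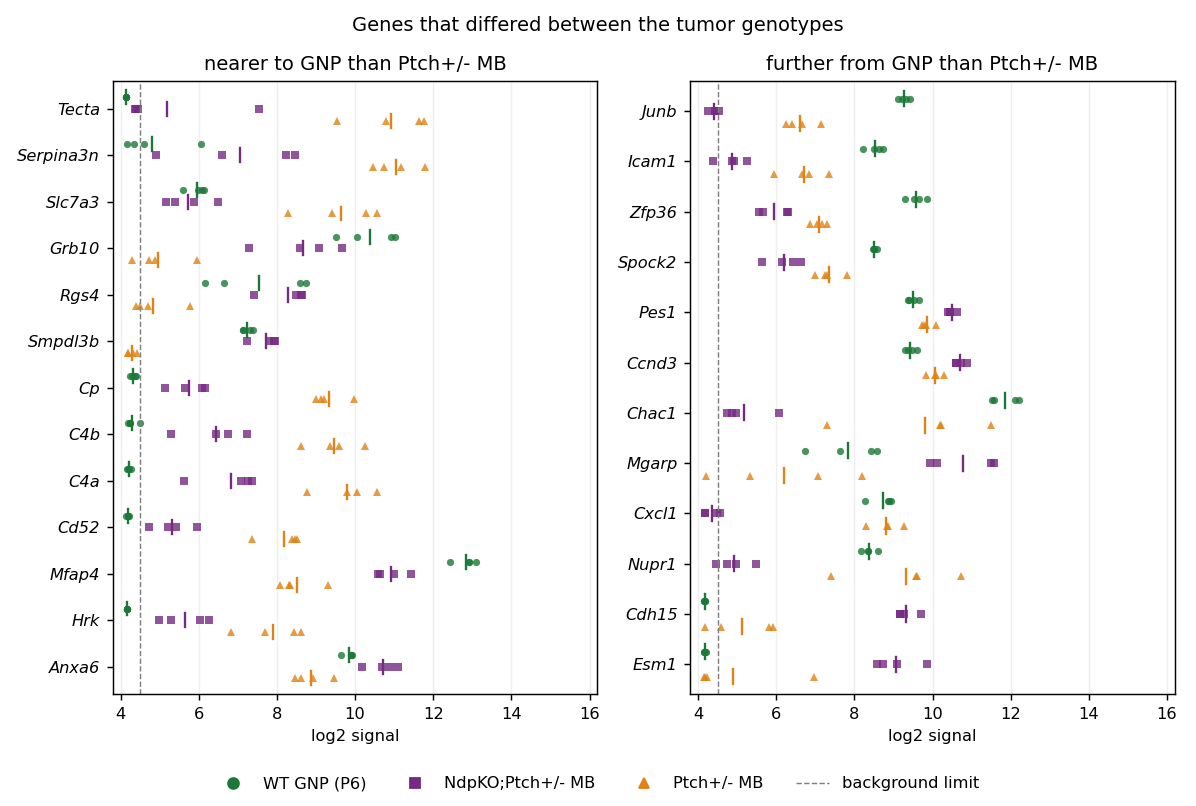
log2 signal (x axis) in each WT GNP sample (circles), NdpKO;Ptch+/- MB (squares) and Ptch+/- MB (triangles), with bars at the group means and the background limit dashed, for named genes nearer to GNPs or further from GNPs without Ndp. Smpdl3b lay at 7.23 to 7.95 without Ndp and 7.13 to 7.38 in GNPs against 4.2 to 4.42 in Ptch+/- MB, and Cxcl1 at 4.17 to 4.57 without Ndp against 8.26 to 8.93 in GNPs and 8.29 to 9.27 in Ptch+/- MB.

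Among the genes nearer to GNPs, *Tecta*, which encodes a matrix protein of the inner ear, was at 11.63, 10.78, 9.54 and 11.78 in Ptch+/- MB and under the limit in GNPs and in 3 of the 4 tumors without Ndp, with replicate 1 at 7.54. *Slc7a3*, a cationic amino acid transporter, was at 8.28 to 10.56 in Ptch+/- MB, 5.17 to 6.50 without Ndp and 5.61 to 6.12 in GNPs. The protease inhibitor gene *Serpina3n*, a marker of reactive glia, was at 10.47 to 11.79 in Ptch+/- MB and spread from 4.91 to 8.46 without Ndp. All 3 were lower without Ndp, and other genes returned upwards. *Smpdl3b*, a membrane phosphodiesterase, was at 7.95, 7.94, 7.23 and 7.79 without Ndp, 7.13 to 7.38 in GNPs and 4.2 to 4.42 in Ptch+/- MB (adjusted p between the genotypes 2.34e-05). The imprinted growth inhibitor *Grb10* was at 7.29 to 9.68 without Ndp and 9.52 to 11.02 in GNPs, against 4.28 to 5.95. The hedgehog effector *Gli3* was at 7.98 to 9.53 and 9.38 to 9.96, against 4.17 to 6.39, and *Smo* and *Ccnd2*, which were higher in Ptch+/- MB than in GNPs, were lower without Ndp by 0.72 and 0.85.

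Among the partial returns, ceruloplasmin (*Cp*), a copper-binding acute phase protein, was at 5.14, 5.64, 6.08 and 6.16 without Ndp, at 9.0 to 9.97 in Ptch+/- MB and at 4.23 to 4.40 in GNPs (log2 difference between the genotypes -3.57 ± 0.26, adjusted p = 0.000378). The complement genes *C4a* and *C4b*, near-identical copies whose probes may share signal, were lower by 2.97 and 3.03 than in Ptch+/- MB, and the leukocyte antigen *Cd52* was lower by 2.85. The matrix gene *Mfap4*, the imprinted *Ndn* and the neurofilament gene *Nefm* were higher than in Ptch+/- MB by 2.40, 1.99 and 1.56 and still under GNP levels. *Anxa6*, a membrane-binding annexin, was the gene that lay on the other side, at 10.17 to 11.10 without Ndp, 9.63 to 9.93 in GNPs and 8.47 to 9.47 in Ptch+/- MB. Of 15 acute phase genes 7 were nearer to GNPs (2.77% of all members were) and 2, *Cxcl1* and *Icam1*, were further away (1.19%).

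Genes further from the GNP level without Ndp took in 3 of the 22 immediate early genes, none of which was nearer. The amino acid and integrated stress response list was divided, with *Chac1*, *Cebpb* and *Sesn2* further from GNPs and *Asns*, *Slc7a3* and *Gars* nearer, among 26. Over all members, 1.19% were further and 2.77% nearer, and both list counts rest on few genes. *Junb* was at 9.12 to 9.43 in GNPs, 6.24 to 7.14 in Ptch+/- MB and 4.25 to 4.53 without Ndp (adjusted p between the genotypes 0.000589), and *Zfp36* and the adhesion molecule gene *Icam1* followed the same order. *Pes1* and *Ccnd3* lay further upwards, by 0.63 and 0.62. *Cxcl1*, a chemokine that attracts neutrophils, was at 8.93, 8.26, 8.86 and 8.87 in GNPs, 8.29, 9.27, 8.84 and 8.86 in Ptch+/- MB and 4.17, 4.57, 4.5 and 4.18 without Ndp (log2 difference between the genotypes -4.46 ± 0.22, adjusted p = 4.69e-05). Only the tumors without Ndp stood apart. *Chac1*, *Nupr1*, *Cebpb* and *Slc38a5* also fell against GNPs without Ndp, differed between the genotypes and did not pass in Ptch+/- MB, although *Chac1* spread there from 7.30 to 11.51. The call of *Chac1* between the genotypes was lost without NdpKO;Ptch+/- replicate 1, 2 or 3 or Ptch+/- replicate 1 (adjusted p up to 0.146 over all alternatives). *Cdh15*, a cadherin of muscle precursors and granule cells, was at 9.27, 9.17, 9.72 and 9.17 without Ndp, at 4.14 to 4.19 in GNPs and at 4.17 to 5.93 in Ptch+/- MB. The muscle determinant *Myod1* was at 8.96 to 9.71, against 4.15 to 4.53 in GNPs and 4.23 to 7.56 in Ptch+/- MB, and the genotypes did not pass (adjusted p = 0.0546). *Esm1*, described above, was at 6.97, 4.22, 4.16 and 4.18 in Ptch+/- MB.

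The 9 genes on the other side of GNPs included *Mmrn2*, an endothelial matrix protein, at 6.44 to 7.73 without Ndp, 5.34 to 6.39 in GNPs and 4.22 to 5.17 in Ptch+/- MB, and the calcium-binding protein gene *S100a6*, at 6.04 to 6.43, 7.20 to 7.85 and 7.87 to 9.50. Of the 25 genes named for these classes, *Cdh15*, *Cp*, *Cxcl1*, *Junb* and *Smpdl3b* passed between the genotypes under every alternative tried, the tumors alone included, and 20 lost the call under at least 1.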

How the data were processed

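Arrays were Illumina MouseWG-6 v2.0 BeadChips, hybridized with RNA of 4 NdpKO;Ptch+/- MBs, 4 Ptch+/- MBs and 4 wild-type GNP samples. The authors deposited log2 values made from BeadStudio output with neqc of limma (version not given in the sources used here), which corrects background with control probes and normalizes quantiles, so general differences in level between arrays cannot be seen. They annotated probes with illuminaMousev2.db 1.26.0. Of 45281 probes, 34885 had 1 symbol, 18 several and 10378 none.

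A group-means model over the 12 arrays was fitted with limma 3.58.1 in R 4.3.3, with eBayes and Benjamini-Hochberg adjustment over all probes, and was tested on simulated data. The named genes are the 15 largest rises and falls above the limit, the 8 largest bounds each way, up to 4 genes of each of 45 lists, up to 6 genes of each class of return and genes the study discusses; other list genes were picked with their values in view, mostly to fill out a count. The members and lists were chosen with earlier results of these data known. The alternatives were 2 other scalings, leaving out dim probes, a trended prior, array weights, the groups compared alone, a replicate block, a threshold of 0.01, the mean of probes, a limit of 5.0 and leaving out each sample.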

Additional observations from a re-analysis of the deposited data

Results flagged for a closer look

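A lone sample far from the other 3 of its group was found in 29 of the 394 groups of 4 tested for the 227 named genes (7.36%), where chance gives about 1 in 20. Among the NdpKO;Ptch+/- tumors, replicates 3 and 4 gave 7 and 6 of these, replicate 2 gave 3 and replicate 1 gave 1. Values here are log2 signals. The lone tumor was the highest for *Chac1* in replicate 4 (6.08, others 4.75 to 4.97), *Kcnd2* in replicate 4 (9.43, others 8.68 to 8.76), *Dab1* in replicate 3 (5.38, others 4.29 to 4.40), *Aplnr* in replicate 3 (5.22, others 4.23 to 4.31), *Mag* in replicate 3 (5.56, others 4.25 to 4.36), *Tecta* in replicate 1 (7.54, others 4.36 to 4.44). It was the lowest for *Apobec1* in replicate 4 (9.04, others 9.14 to 9.15), *Sfrp1* in replicate 2 (13.17, others 13.51 to 13.53), *Efna5* in replicate 4 (9.71, others 10.06 to 10.13), *Col6a1* in replicate 2 (4.36, others 5.99 to 6.21), *Tyrobp* in replicate 3 (6.86, others 8.03 to 8.13), *Atp5d* in replicate 3 (11.46, others 11.68 to 11.72), *Rpl23* in replicate 2 (15.72, others 15.86 to 15.88), *Pdia3* in replicate 4 (12.14, others 12.29 to 12.31), *Rgs4* in replicate 3 (7.42, others 8.48 to 8.64), *C4a* in replicate 3 (5.61, others 7.08 to 7.36), *Tspan12* in replicate 4 (8.15, others 8.72 to 8.75).

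The low signal of tumor replicate 3 in *Tyrobp* and *C4a* concerned a microglial and a complement gene, and its high signals in *Mag*, *Dab1* and *Aplnr* were genes near or under the limit in the other tumors. Among GNPs, the lone sample was the highest for *Clic6* in replicate 3 (6.48, others 6.21 to 6.26), *Ppp1r15a* in replicate 1 (9.58, others 9.18 to 9.23), *Ccnd1* in replicate 2 (12.99, others 12.36 to 12.45), *Msi1* in replicate 2 (5.74, others 4.44 to 4.53), *Igf1* in replicate 1 (5.26, others 4.19 to 4.23), *Srebf1* in replicate 4 (5.45, others 4.31 to 4.44). It was the lowest for *Mbp* in replicate 1 (12.38, others 13.15 to 13.31), *Cldn11* in replicate 1 (12.33, others 12.98 to 13.09), *Lhx5* in replicate 2 (8.98, others 9.13 to 9.15), *Rps9* in replicate 2 (15.42, others 15.44 to 15.44), *Cxcl1* in replicate 2 (8.26, others 8.86 to 8.93), *Anxa6* in replicate 3 (9.63, others 9.89 to 9.93). Replicate 1 was the low sample for both myelin genes in this set, *Mbp* and *Cldn11*.

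The difference from GNPs itself differed between the tumor genotypes for 372 members, and 43 of these are named genes. As log2 differences, NdpKO;Ptch+/- minus Ptch+/- MB, the lower ones without Ndp were *Tecta* -5.75, *Chac1* -4.63, *Cxcl1* -4.46, *Nupr1* -4.41, *Serpina3n* -4.0, *Slc7a3* -3.90, *Cp* -3.57, *C4b* -3.03, *C4a* -2.97, *Col6a1* -2.90, *Cd52* -2.85, *Cebpb* -2.81, *Slc38a5* -2.52, *Sesn2* -2.51, *Hrk* -2.26, *Junb* -2.20, *Nfkbiz* -2.15, *Icam1* -1.84, *Spock2* -1.14, *Zfp36* -1.14, *Ccnd2* -0.85, *Smo* -0.72 and *Polr1b* -0.64. The higher ones were *Mgarp* 4.59, *Cdh15* 4.21, *Esm1* 4.18, *Grb10* 3.70, *Rgs4* 3.45, *Smpdl3b* 3.44, *Gli3* 3.40, *Mfap4* 2.40, *Ndn* 1.99, *Emcn* 1.95, *Anxa6* 1.85, *Hopx* 1.71, *Nefm* 1.56, *Notch4* 0.66, *Pes1* 0.63, *Ccnd3* 0.62, *Ldha* 0.58, *Atp5d* 0.42, *Ndufc1* 0.37 and *Pdia3* 0.24. Stress, acute phase and complement genes stand among the lower ones and no microglial list gene passed.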

How the results depend on the processing

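Against GNPs, 2656 genes changed, 1993 to 2487 with each sample left out (1034 to 1325 higher, 959 to 1162 lower), 3368 with the median of bright probes set equal, 3315 without dim probes, 3063 with an intensity trend and robust prior and 3046 with array weights. At a threshold of 0.01 it had 1462 (760 higher, 702 lower). Of 187 named genes past the threshold, 145 passed under every alternative, 42 lost the call under at least 1 and none changed direction.

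The comparison of NdpKO;Ptch+/- with Ptch+/- MB moved more. Leaving out dim probes gave 697 genes (309 higher, 388 lower; 486 nearer to GNPs, 211 further), and an intensity trend with a robust prior 589 (255 higher; 412 and 177). The tumors alone gave 41 (15 higher, 26 lower; 30 and 11), a threshold of 0.01 gave 87 (31 and 56; 62 and 25), and the mean of all probes gave 229 higher. With each sample left out the count was 220 to 321 (77 to 142 higher, 131 to 186 lower; 155 to 217 nearer, 61 to 114 further), lowest without NdpKO;Ptch+/- replicate 2 (220) and Ptch+/- replicate 3 (224). The tumors alone leave fewer residual degrees of freedom and do not share the spread of GNPs. The cause of this shift and of the others was not tested.

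With the replicate number as a block, 142 genes differed between the tumor genotypes (55 higher, 87 lower; 104 nearer, 38 further) and 2224 between NdpKO;Ptch+/- MB and GNPs. Samples of the same number deviated from their group means with r of -0.182 to 0.111. For samples of different numbers r was -0.155 to 0.26. Whether samples of the same number share more than the number was not tested. Of 990 counts of list members under alternatives, 165 moved by over 1.5 times. Signals near the background limit bound a fold and do not measure it, and 4 arrays a group limit the precision.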

Other observations

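Several lists not described above changed in part. Chaperone genes had 3 rises and 7 falls among 19, with the endoplasmic reticulum chaperone genes *Dnajb9* and *Calr* down by 0.69 and 0.60 and the small heat shock protein gene *Cryab* up by 2.01. There were 3 falls without tumor replicate 1, and 1 rise without tumor replicate 1 or 2 or any GNP replicate. Antioxidant and glutathione genes had 4 rises and 5 falls among 27, and 2 or 3 falls with any sample but tumor replicate 4 left out. The glutathione transferase genes split, with *Gstt1* and *Gstm1* up by 1.70 and 1.46 and *Gstm2* and *Gstm7* down by 2.13 and 1.49. The metallothionein gene *Mt3* rose by 2.01. Glycolysis and hypoxia genes had 4 rises and 2 falls among 21, with *Aldoc* up by 1.98 and the hypoxia-induced *Ndrg1* down by 3.03, and 1 or 2 rises with any sample left out.

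Imprinted genes had no rise and 5 falls among 15, with the noncoding *Rian* and the growth suppressor *Ndn* down by 1.32 and 1.47; without tumor replicate 1 or GNP replicate 1 a single fall passed, and 2 or 3 with any other sample left out. Histone and high mobility group genes had 4 falls and no rise among 16, *Hmgn5* by 0.94 and *Hmgb2* by 0.51. Proteases and their inhibitors had 3 rises and 4 falls among 20. The gelatinase gene *Mmp2* rose by 2.01, while *Mmp17*, *Adamts4* and the inhibitor gene *Timp3* fell by 3.31, 2.72 and 1.92.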
